A study of Mus musculus with 9 samples.

Results

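Genes hold sites inside their own transcribed length where RNA polymerase also starts. In mammals many such sites are enhancers, which recruit polymerase and release short unstable transcripts in both directions, and others are alternative promoters. PRO-seq maps engaged polymerase by its nascent RNA, and dREG is a program that finds sites of initiation from such maps. A site inside a gene is harder to read than one between genes, because polymerase that started at the host gene's promoter also passes over it.

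The sites described here are the entries of the deposited dREG peak table that are classed as lying in a gene in the sense orientation and that carry no strand, so that each is counted as a whole peak. There were 2473 of them among 42114 entries of the table, and 11718 of those entries were whole peaks of any location. They are called intragenic whole peaks below, and the gene named as overlapped is called the host. The other 6423 sense entries within genes are counted on 1 strand. In all, 1679 different overlap names occurred, 52 peaks had an overlap name without gene-body counts, and 2421 named 1 gene that has gene-body counts. Of these, 2263 lay in protein-coding genes and 154 in non-coding RNA genes.

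The 9 libraries came from mouse erythroid lines. G1E-ER4 is a derivative of G1E that carries GATA1, the main transcription factor of red cell maturation, fused to the hormone-binding part of the oestrogen receptor. Estradiol at 100 nM switches the fusion on, and G1E-ER4 was sampled in 3 libraries before treatment (0 h), in 2 at 13 h and in 2 at 24 h. The parent line G1E, which has no functional GATA1, gave 2 untreated libraries. Nothing in the labels says that replicates are separate cultures, so p-values measure only the spread between these libraries.

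Total element reads ran from 15394427 to 59952454 per library, and total gene-body reads from 37830789 to 139945759. Gata1, Klf1, Epor, Tfrc, Gfi1b and Kit, which mark erythroid progenitors, had gene-body reads in every library, with Epor the lowest at 14.2 to 30.8 CPM (reads per 1e+06 counted reads after TMM scaling). Summed gene-body levels of 15 lymphocyte markers lay between 2.06 and 5.17 CPM in all libraries. For 14 granulocyte and monocyte markers the sum was 125 to 198 CPM at 0 h, 79.7 to 108 at 13 h and 32.2 to 38.6 at 24 h, and 95.9 to 158 in G1E. For 14 mast cell and basophil markers it was 132 to 176 CPM at 0 h, 75.4 to 83.1 at 13 h and 48.7 to 128 at 24 h, and 107 to 227 in G1E. The sum of 14 megakaryocyte markers was 182 to 205 CPM at 0 h, 214 to 229 at 13 h and 122 to 198 at 24 h. In G1E that sum was 192 to 206 CPM. The part of these cells in the changes below was not tested. In such bulk samples, fewer cells of a type and less transcription per cell cannot be told apart.

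Intragenic whole peaks had a median width of 1551 bases, and the middle of their positions lay at 45.9% of the host's length from its start, with quartiles at 21.5% and 72.5%. The authors' table marks 1469 of them, 59.4%, as regulatory. It marks none of the entries counted on 1 strand in the sense class and all 4560 intergenic whole peaks. A typical peak held a large amount of signal relative to its host. Its reads, summed over the 9 libraries, came to a median of 17.1% of the host's gene-body reads, against 2.07% for sense elements counted on 1 strand. In 388 of 2421 peaks they exceeded the host's reads. Whether reads of both strands were counted in whole peaks is not given in the sources used here.

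Many hosts held several of these sites. Of 1636 single hosts, 465 had at least 2 peaks and together held 1250. Igf1r, the receptor for insulin-like growth factor 1, had the most with 9, and Nav2, a cytoskeletal protein of neurons, had 8. Pde11a, Rapgef4, Ephb2, Megf11 and Esr1 had 7 each.

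A single peak took an outsized share of the reads. It lies at 99.4% of Lars2, the mitochondrial leucyl-tRNA synthetase (chr9:123369550-123372951, mm9). It held 66866, 51685 and 680611 reads at 0 h, 54327 and 49510 at 13 h, 108619 and 131175 at 24 h, and 339437 and 145439 in G1E. The third library of 0 h stands far above the others of its group, and the groups overlap. Its log2 change was -1.98 at 13 h (adjusted p = 0.13, edgeR quasi-likelihood test) and -0.64 at 24 h (adjusted p = 0.56), both against 0 h. This peak touches sums of reads only, and calls per peak do not rest on it.

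Together, intragenic whole peaks took 2.42% ± 0.46 of element reads at 0 h (SD, n = 3), 2.63% ± 0.137 at 13 h (n = 2) and 2.92% ± 0.122 at 24 h (n = 2), and 3.50% ± 0.219 in G1E (n = 2). Without the Lars2 peak these shares were 1.93% ± 0.292, 2.49% ± 0.106 and 2.60% ± 0.0648 in G1E-ER4, and 2.66% ± 0.333 in G1E. For these shares of element reads, no exact two-sided permutation test of the 4 comparisons gave a p under 0.2, and 2 libraries against 3 cannot give one under 0.1.

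With estradiol, far more of these peaks were lower than higher. At 13 h, 386 were higher and 825 lower than at 0 h among 2199 with enough reads to test. That is 17.6% and 37.5%, beside a background of 15.2% and 18.6% over all 35158 elements tested. At 24 h, 385 were higher and 1156 lower than at 0 h, which is 17.5% and 52.6% beside 22.7% and 29.5% of all elements. The median log2 change was -0.92 at 13 h and -1.79 at 24 h, where that of all elements was -0.13 and -0.18. A call is an adjusted p under 0.05 in edgeR's quasi-likelihood test over all elements, with Benjamini-Hochberg adjustment. The comparisons at 13 h and at 24 h share the 0 h libraries.

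Sense elements counted on 1 strand inside genes gave another picture. Of 5744 tested, 1618 were higher and 1140 lower at 24 h, with a median log2 change of 0.15. Intergenic whole peaks had 487 higher and 2177 lower of 4024, with a median of -1.96. Whole peaks at gene starts had 1828 higher and 1099 lower of 4659, with a median of 0.28. For the intergenic whole peaks these counts are 12.1% higher and 54.1% lower. Differences between these classes were not tested.

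**Figure D1:**
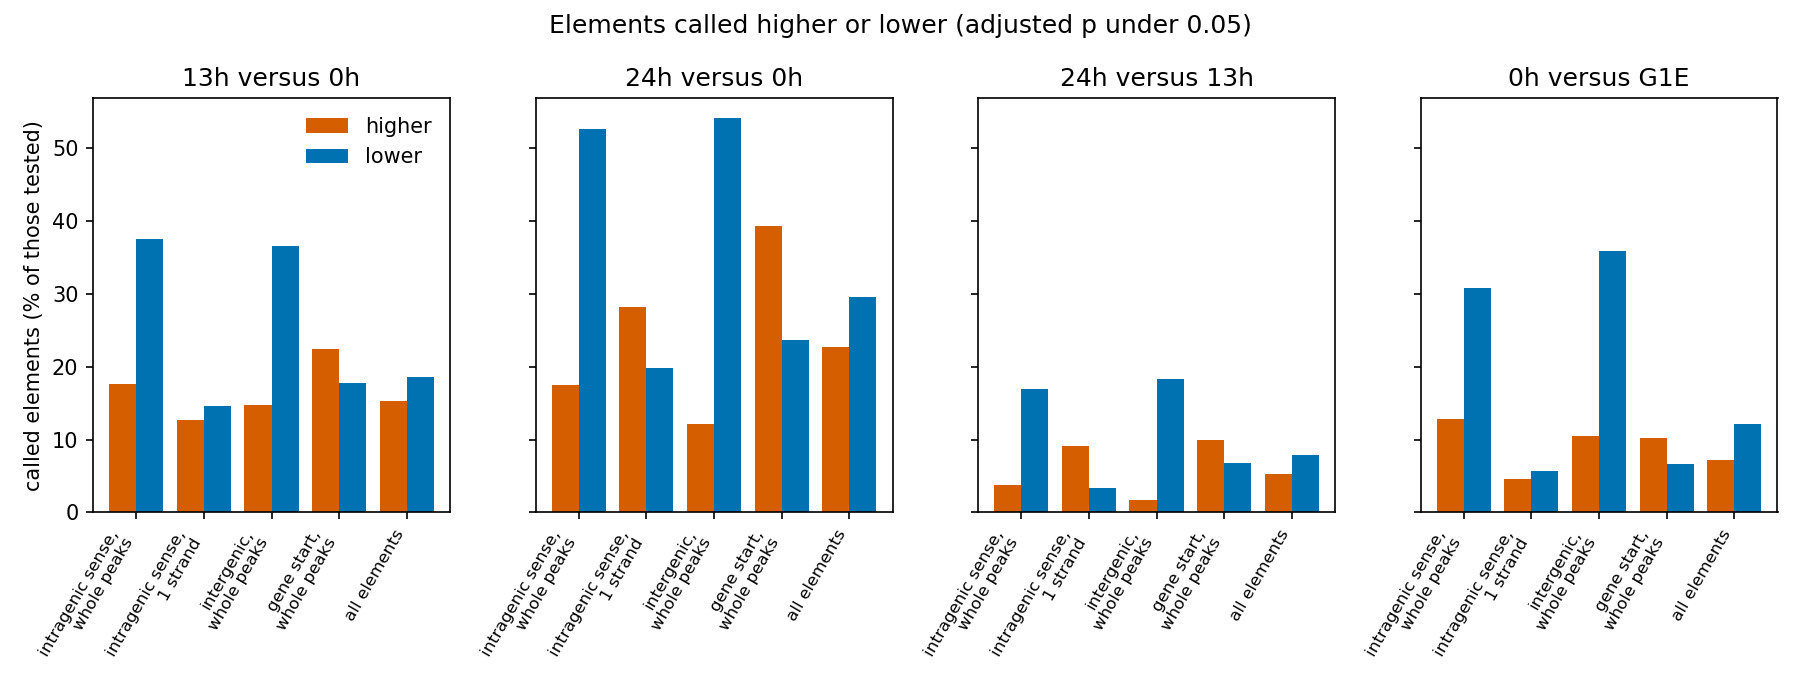
Share of tested elements called higher (orange) or lower (blue) in each comparison, in percent, for 5 classes of element. At 24 h versus 0 h, 52.6% of intragenic whole peaks and 54.1% of intergenic whole peaks were lower, against 19.8% of sense elements counted on 1 strand.

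From 13 h to 24 h, 83 intragenic whole peaks were higher and 373 lower, beside 5.28% and 7.82% of all elements, with a median log2 change of -0.75. These counts rest on single libraries: without replicate 2 of 24 h they were 13 and 82, without replicate 1 of 13 h 27 and 206, and without replicate 2 of 13 h 32 and 246. With the leading digits of the sample titles as a block they were 9 and 94, and no 13 h library shares those digits with a 24 h library.

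Between the lines, before any estradiol, 282 peaks were higher and 676 lower in G1E-ER4 at 0 h than in G1E, beside 7.18% and 12.1% of all elements. The median log2 difference was -0.47, and 0.01 over all elements. Without replicate 1 of G1E the counts were 124 and 276. With the title digits as a block the higher count was 186.

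Silence was also counted directly in reads. No read fell on 453 peaks in both 24 h libraries, on 288 in both 13 h libraries, on 106 in the 3 libraries of 0 h and on 97 in both G1E libraries. Those are 18.3%, 11.7%, 4.29% and 3.92% of the 2473, where 9.09%, 5.75%, 1.98% and 4.26% of all elements had none. Such counts depend on depth and on the number of libraries, which is 3 at 0 h and 2 in each other group. They and the limit of 50 reads used below are therefore not equal between groups. Of the peaks with no read at 24 h, 88 of 2473 had at least 50 reads over the 0 h libraries, where 450 of all 42114 elements met both conditions. Between the lines the same count was made each way, and such peaks qualify only through the group with reads. There were 36 peaks, in 30 hosts, with no read in G1E and at least 50 reads over the 0 h libraries, and 45 peaks, in 32 hosts, with no read at 0 h and at least 50 over the G1E libraries. Among all elements these numbers were 209 and 140.

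Peaks were also split by the authors' regulatory mark. At 24 h, 741 of 1257 marked peaks were lower and 111 higher, with a median log2 change of -2.67. Among 942 unmarked peaks, 415 were lower and 274 higher, with a median of -0.86. By position, 306 of 622 peaks in the first 25% of the host were lower and 140 higher at 24 h, and 288 of 520 in the last 25% were lower and 67 higher. The differences between these classes were not tested.

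The change of the host was compared with that of its peak, since polymerase that reads through the host adds to both. Of 1448 distinct hosts tested, 321 were higher and 424 lower in gene-body reads at 13 h than at 0 h, beside 20.1% and 20.9% of all 13825 genes tested. At 24 h, 320 were higher and 627 lower, beside 29.0% and 30.7% of all genes. From 13 h to 24 h, 130 were higher and 259 lower, beside 11.7% and 12.5%. In G1E-ER4 at 0 h against G1E, 183 were higher and 346 lower, beside 7.88% and 9.58%. Without replicate 2 of 24 h the counts from 13 h to 24 h were 74 and 93, and without replicate 1 of 13 h 84 and 159. The lower count was 153 without replicate 2 of 13 h. Without replicate 1 of G1E the counts between the lines were 106 and 172, and without replicate 2 the higher count was again 106.

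Peak and host mostly moved the same way. Of 1492 peaks called at 24 h whose host could be tested, 1167 had a host called in the same direction, 293 a host that was not called and 32 a host called in the opposite direction. At 13 h the same counts were 828, 328 and 17 of 1173. For sense elements counted on 1 strand, the host was called the same way for 2501 of 2677 at 24 h. Across 2119 peaks the log2 changes of peak and host had a Pearson r of 0.75 at 13 h and 0.78 at 24 h, as a description. Peak and host share their libraries, and host reads may include those of the peak.

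The difference was tested as element reads per host gene-body read in the same library, again with edgeR's quasi-likelihood test. Relative to their hosts, 206 peaks were higher and 263 lower at 13 h than at 0 h, among 2119, beside 9.67% and 8.16% of 11809 elements with a tested host. With library scaling of both tables, added after seeing the data, those counts were 155 and 404, and the median over all such elements moved from -0.03 to -0.25. At 24 h, 196 were higher and 434 lower, beside 8.34% and 15.4%. Without replicate 1 of 13 h the counts at 13 h were 131 and 120, and without replicate 2 they were 128 and 122. Without replicate 2 of 24 h those at 24 h were 119 and 201, and without replicate 1 the higher count was 115.

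The ratio was split by the mark as well. At 24 h the ratio was lower for 278 of 1203 marked peaks and higher for 88, with a median log2 change of -0.87. It was lower for 156 of 916 unmarked peaks and higher for 108, with a median of -0.11. From 13 h to 24 h, 9 peaks were higher and 60 lower relative to the host, beside 0.39% and 3.12%. Without replicate 2 of 24 h these were 0 and 1, without replicate 1 of 13 h 3 and 17, without replicate 2 of 13 h 3 and 13 and without replicate 1 of 0 h 16 and 107. The lower count was 26 without replicate 1 of 24 h, and with the title digits as a block none was called in either direction. In G1E-ER4 at 0 h against G1E, 114 were higher and 167 lower, beside 3.23% and 4.95%. Without replicate 1 of G1E those were 32 and 36, and without replicate 2 the higher count was 62. The lower count was 100 without replicate 2 of 0 h and 109 without replicate 3.

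**Figure D2:**
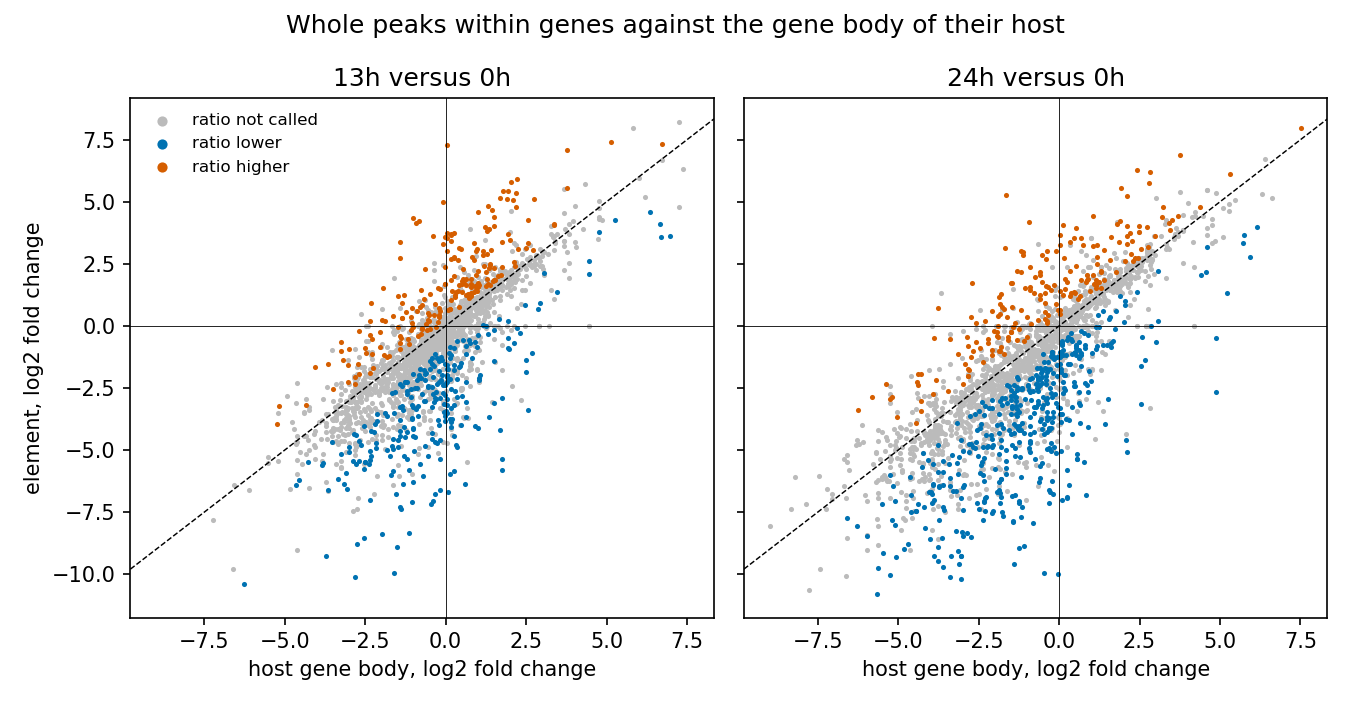
Log2 fold change of each of 2119 intragenic whole peaks (vertical) against that of its host's gene body (horizontal), at 13 h and 24 h versus 0 h. Orange and blue points had a ratio of peak to host called higher or lower, and the dashed line marks equal change. Most points follow the line. The axes are scaled by library and the tested ratio is not, so a called point need not lie on its side of the line. At 24 h the ratio was called lower for 434 peaks. With library scaling of both tables, added after seeing the data, the count was 544.

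Among the peaks that rose, several lay in genes of red cell maturation that also rose. Of 15 genes of haem synthesis, 3 held an intragenic whole peak, and all 3 peaks were higher at 13 h and at 24 h. Of all elements tested, 15.2% were higher at 13 h and 22.7% at 24 h. In Abcb10, a mitochondrial transporter needed for haem, the peak (chr8:126496700-126497951, 31.6% of the gene) had 66.2 and 70.0 CPM at 24 h, against 2.33, 4.13 and 3.02 CPM at 0 h. Every 24 h library stood above every 0 h library. The log2 change was 4.43 ± 0.28 (SE, adjusted p = 9.15e-08, edgeR) for the peak and 4.48 ± 0.17 for the gene body, and their ratio changed by 0.09 (adjusted p = 0.78).

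Tmem14c, which moves a haem precursor into mitochondria, held a peak (chr13:41114200-41116901) with 446 and 610 CPM at 24 h, against 47.0, 87.9 and 83.8 CPM at 0 h. Its log2 change was 2.86 ± 0.26 (adjusted p = 1.36e-06, edgeR) and the host's was 2.99 ± 0.16. In Slc25a38, the glycine carrier for haem synthesis, the peak (chr9:120023800-120026301) averaged 305 ± 24.8 CPM at 13 h (n = 2) and 202 ± 4.37 at 24 h (n = 2), with 75.7 ± 9.96 at 0 h (SD, n = 3). Its log2 change at 24 h was 1.41 ± 0.19 (adjusted p = 4.40e-05, edgeR). The ratio of peak to host was called for Slc25a38 at 13 h, higher by 0.60 (adjusted p = 0.048, edgeR), and for none of the 3 at 24 h.

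Of 27 genes for the red cell membrane and cytoskeleton, 3 held 4 peaks. All 4 were higher at 13 h, and 3 were higher at 24 h, beside 15.2% and 22.7% of all elements. Both peaks of Sptb, which encodes beta spectrin, rose by 4.61 and 4.43 at 24 h on the log2 scale, and the gene body by 4.24. The peak of Add2, the beta subunit of adducin (chr6:86023800-86025751), went another way. Its log2 change at 24 h was -0.77 ± 0.41 (adjusted p = 0.13, edgeR) while its host rose by 1.49, and the ratio fell by 2.07 (adjusted p = 0.00514, and 0.0595 without replicate 2 of 24 h).

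Transcription factor genes of the red cell lineage gave both directions. The list of 22 held 11 peaks, 9 of them tested, in Zfpm1, Ldb1, Klf13 and Sox6. At 24 h 4 were higher and 5 lower, beside 22.7% and 29.5% of all elements. Zfpm1 encodes FOG1, the partner of GATA1. Its peak at 24.0% of the gene (chr8:124817050-124821501) had 625 and 686 CPM at 24 h, against 52.4, 67.6 and 77.1 CPM at 0 h, and 254 and 124 CPM in G1E. The log2 change at 24 h was 3.32 ± 0.28 (adjusted p = 9.42e-07, edgeR) for this peak and 3.33 for the gene body. Sox6 encodes a factor that acts in erythroid maturation. Its peak at 76.2% (chr7:122691300-122694851) had 0.134 and 0.217 CPM at 24 h, against 27.3, 17.4 and 19.9 CPM at 0 h. It fell by 6.93 ± 0.41 on the log2 scale (adjusted p = 5.40e-08, edgeR) while the gene body fell by 3.04, so that the ratio fell by 3.82 (adjusted p = 0.000222).

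Of 20 stem and progenitor genes listed, only Erg and Meis1 held peaks, 8 in all. Of 7 tested at 24 h, 6 were lower and 0 higher. Among all intragenic whole peaks tested, 52.6% were lower and 17.5% higher. The 4 named peaks of Erg, a transcription factor of stem cells and megakaryocytes, fell by 4.02 to 4.30 on the log2 scale, and the gene body by 3.86, and none of their ratios was called at 24 h. Megakaryocyte marker genes held 8 peaks, of which 7 were tested, and 2 were lower and 0 higher at 24 h. In G1E-ER4 at 0 h against G1E, 5 were lower and 1 higher, beside 12.1% and 7.18% of all elements. All 5 lay in Rab27b, a GTPase of platelet granule release, where the peak with the most reads had 1, 0 and 1 reads at 0 h, against 224 and 44 reads in G1E. Of 19 genes for autophagy and organelle clearance, 3 held a peak. That of Tbc1d15 rose by 3.18 at 24 h and that of Trim58, a ubiquitin ligase of late maturation, fell by 3.89, while the peak in Atg7 had a change of -0.36 (adjusted p = 0.467, edgeR). Of the lymphocyte markers only Ebf1 held a peak, which was not called at 13 h or 24 h. The genes listed for iron uptake, S phase, mitosis, ribosome biogenesis, mast cells and granulocytes held none.

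The peaks with the largest increases had few reads at 0 h. In Csf2rb2, a cytokine receptor chain, the peak (chr15:78129050-78130451) had 556 and 398 CPM at 13 h and 1756 and 2042 CPM at 24 h, with 4.66, 6.71 and 11.2 CPM at 0 h. It rose by 5.98 ± 0.34 at 13 h (adjusted p = 1.45e-07) and by 7.97 ± 0.37 at 24 h (adjusted p = 1.39e-08, edgeR). Reads of Csf2rb2 can be split with its near-identical copy Csf2rb. In Srms, a tyrosine kinase gene, the peak (chr2:180939450-180942151, 93.0%) had 969 and 846 reads at 13 h, against 6, 3 and 9 reads at 0 h, and rose by 7.34 ± 0.38 (adjusted p = 7.14e-08, edgeR). Its host rose by 6.72. At 13 h the ratio of this peak to its host was called higher (1.28, adjusted p = 0.0192, edgeR). That call was lost in 4 alternative fits, limma's test among them (adjusted p = 0.224). At 24 h the ratio was not called (0.895, adjusted p = 0.0677, edgeR). With the peak's reads taken out of the host's, and the remainder held at 1 read or more, that ratio rose by 6.488 (adjusted p = 9.69e-05, edgeR). This is close to the peak's own rise of 6.72 at 24 h, and does not show how far it outran its host. Cpne6, a calcium-binding copine gene, held a peak that rose by 6.33 ± 0.46 at 13 h (adjusted p = 1.37e-06, edgeR).

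Other increases exceeded those of the host. Dnajc15 encodes a co-chaperone of the mitochondrial inner membrane. Its peak at 17.7% of the gene (chr14:78263750-78268451) had 623 and 728 CPM at 24 h, against 11.4, 16.0 and 16.0 CPM at 0 h. Its gene body had 133 and 170 CPM at 24 h, against 33.9, 42.1 and 43.7 CPM at 0 h. The peak rose by 5.55 ± 0.23 (adjusted p = 3.61e-09) and the host by 1.93 ± 0.16, and the ratio rose by 3.76 ± 0.18 (adjusted p = 1.57e-05, edgeR). At 13 h the ratio was already higher (adjusted p = 7.20e-05).

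In Slc7a15, of an amino acid transporter family, the peak rose by 6.90 at 24 h and the host by 3.76, with a ratio change of 3.31 (adjusted p = 0.00053, edgeR). Mbd3l1, a relative of genes for methyl-CpG-binding proteins, held a peak whose ratio rose by 3.82 at 13 h and 3.59 at 24 h, over a host at 0.375 and 0.483 CPM at 24 h, against 0.063, 0.0517 and 0.0619 CPM at 0 h. In Eng, the TGF-beta co-receptor endoglin, the peak at 65.2% (chr2:32524550-32526751) had 6.30 and 9.49 CPM at 13 h, against 0.0803, 0.217 and 0.227 CPM at 0 h. It rose by 5.45 ± 0.56 (adjusted p = 9.87e-06, edgeR) and its host by 1.94, and the ratio rose by 3.73 (adjusted p = 0.00198).

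Some peaks fell to no read at all. A peak at 24.7% of Auts2, a neurodevelopment gene (chr5:132744600-132746651), had no read in the 13 h and 24 h libraries, against 122, 115 and 245 reads at 0 h. It was at least 100.1-fold lower at 13 h (adjusted p = 1.63e-05, edgeR), where the bound sets 3 reads over the group. Its host fell by 2.80 on the log2 scale at 13 h, and the ratio was lower (adjusted p = 0.00156). Peaks in Lrp1b, Luzp2 and Grm8, genes best known from neurons, and in Cyp11a1, the first enzyme of steroid synthesis, likewise had no read at 13 h and were at least 86.0-, 55.3-, 32.0- and 121-fold lower. The hosts of these peaks were also called lower at 13 h, with log2 changes of -1.62, -3.71, -2.53 and -6.29 in the same order.

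At 24 h, no read remained on peaks in Grm4, Nhsl2, Zfp704 and Gas2l3, which were at least 145-, 127-, 94.0- and 84.9-fold lower than at 0 h. Their hosts were called lower too, with log2 changes of -5.66, -7.77, -3.05 and -6.615. Pde4d, which encodes a cyclic AMP phosphodiesterase, held a peak that was lost at 24 h in a gene body that was not called. Its peak at 15.6% (chr13:109646600-109647751) had 13 and 6 reads at 13 h and none at 24 h, with 169, 113 and 130 reads at 0 h. It was at least 78.1-fold lower at 24 h (adjusted p = 6.86e-06, edgeR). The gene body had 753 and 372 CPM at 24 h, against 643, 562 and 510 CPM at 0 h, a log2 change of -0.02 ± 0.25 (adjusted p = 0.944), and the ratio was lower (adjusted p = 0.000275). Another Pde4d peak, at 79.3%, was higher at 24 h, by 0.66.

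**Figure D3:**
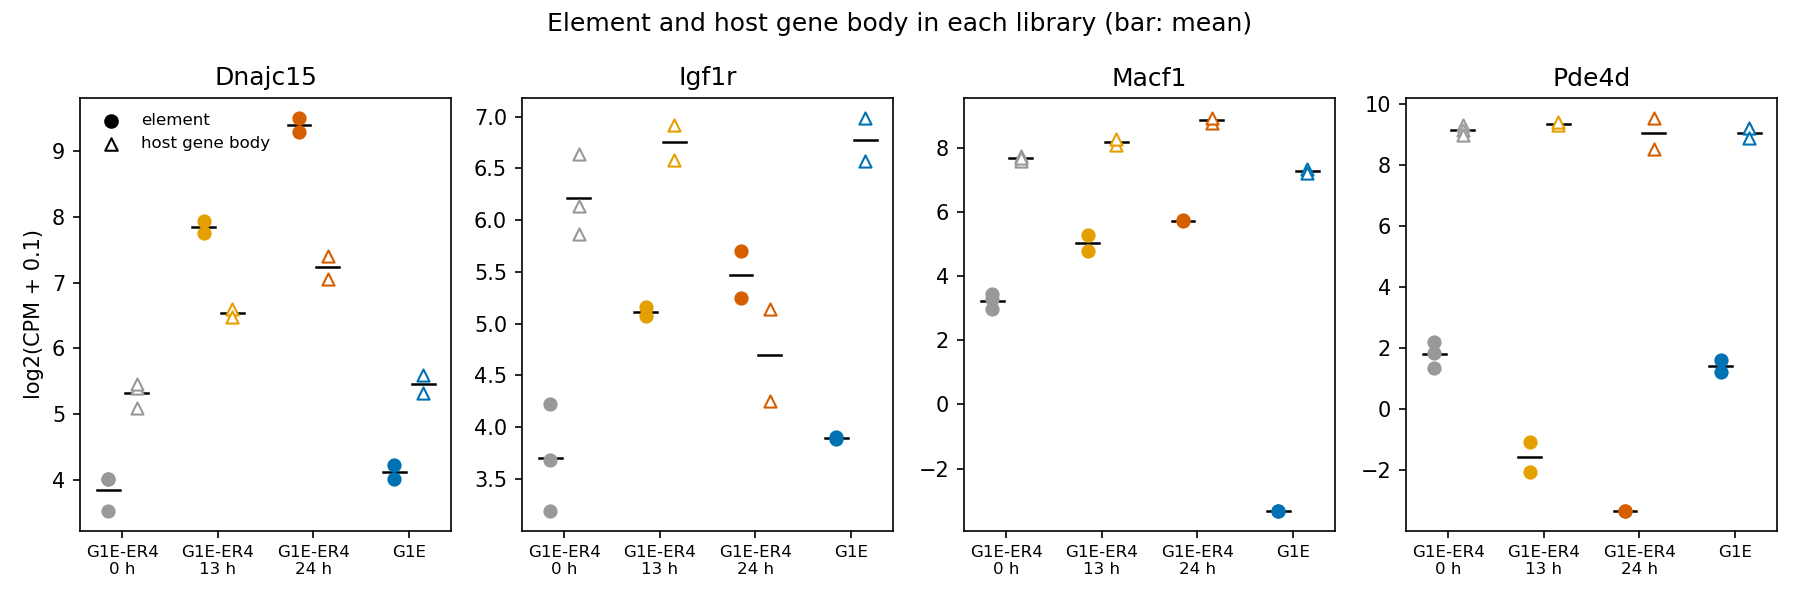
Level of 1 intragenic whole peak (filled circles) and of its host's gene body (open triangles) in each library, as log2(CPM + 0.1), in Dnajc15, Igf1r, Macf1 and Pde4d, with bars at the mean of these log2 values. The Macf1 peak has no read in G1E and the Pde4d peak none at 24 h, while the gene bodies of these 2 hosts lie between 150 and 753 CPM in all libraries.

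A few peaks moved against their hosts. At 24 h, 10 rose in hosts that fell and 22 fell in hosts that rose, and at 13 h the numbers were 4 and 13. Igf1r was among them. Its peak at 62.9% (chr7:75272650-75275751) had 52.0 and 37.8 CPM at 24 h, against 18.6, 12.8 and 9.04 CPM at 0 h. Its gene body had 35.3 and 18.9 CPM at 24 h, against 99.6, 70.2 and 58.3 CPM at 0 h, and neither set of groups overlaps. The peak rose by 1.74 ± 0.27 (adjusted p = 0.000151) while the host fell by 1.49 ± 0.31 (adjusted p = 0.00189), and the ratio rose by 3.39 (adjusted p = 4.48e-05, edgeR).

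In Col5a1, a fibrillar collagen gene, the peak at 77.5% (chr2:27859550-27861651) rose by 2.39 ± 0.32 at 24 h (adjusted p = 4.14e-05, edgeR) and the gene body fell by 0.90. In Enthd1 the peak rose by 2.20 ± 0.49 at 24 h (adjusted p = 0.00188, and 0.0625 without replicate 1 of 24 h) and the gene body fell by 1.32 (adjusted p = 0.0442, edgeR). In Arl15, a small GTPase, the peak at 17.8% (chr13:114648150-114650451) had 15.7 and 16.6 CPM at 13 h, against 6.02, 7.67 and 7.24 CPM at 0 h. It rose by 1.21 (adjusted p = 0.0029, edgeR) while the gene body fell by 1.49. In the other direction, the peak at 47.3% of the non-coding RNA gene Lincpint (chr6:31108500-31110201) had 0.428 and 0.0621 CPM at 24 h, against 5.86, 3.48 and 3.44 CPM at 0 h. It fell by 4.06 (adjusted p = 0.000123, edgeR) while the gene body rose by 0.89. In Crem, a cyclic AMP-responsive factor, the peak fell by 1.81 (adjusted p = 0.000192) and the gene body rose by 0.93.

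Peaks within 1 gene did not always move together. Of 276 hosts with at least 2 called peaks at 24 h, 200 had only lower ones, 48 only higher ones and 28 both. For sense elements counted on 1 strand, 15 of 535 such hosts had both. Igf1r is among the 28. Its 9 peaks, all tested, included 1 that was higher at 24 h, 4 that were lower and 4 not called, and the higher one lies between the peaks at 47.4% and 75.4% of the gene. In Nav2, 7 of 8 peaks were lower at 24 h and the other was not called, and its gene body fell by 2.07. Megf11, an EGF-repeat receptor gene, had 4 lower peaks and 1 higher one among 5 tested. The higher one, at 82.9%, had 25 and 15 reads at 13 h and 5 and 4 reads at 24 h, with no read at 0 h. The ephrin receptor gene Ephb2 had 5 lower peaks of 6 tested, and Pde11a, a phosphodiesterase gene, 6 of 6. In Rapgef4, an exchange factor that answers to cyclic AMP, 4 of 7 were lower.

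Transient peaks, which were higher by at least 1 on the log2 scale at 13 h and then lower at 24 h than at 13 h, numbered 57 in 51 hosts. That is 2.59% of the peaks tested, beside 1.27% of all elements. Without replicate 2 of 24 h there were 7, without replicate 1 of 13 h 19, without replicate 2 of 13 h 35 and without replicate 1 of 0 h 93, and with the title digits as a block 9. Their median log2 change against 0 h was 2.43 at 13 h and 0.31 at 24 h. At 24 h, 18 were still higher than at 0 h, 3 were lower and 36 were not called. Of 55 with a tested host, 39 had a host that also rose at 13 h, and 34 a host that fell from 13 h to 24 h.

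Among these, 2 lay close together in Ece1, the endothelin-converting enzyme, at 63.3% and 66.9% of the gene. The first of them (chr4:137482200-137484551) had 262 and 182 reads at 13 h and 72 and 43 reads at 24 h, with 0, 2 and 3 reads at 0 h. It rose by 7.09 ± 0.63 at 13 h (adjusted p = 3.57e-06) and then fell by 1.87 ± 0.52 (adjusted p = 0.0315, edgeR). The gene body rose by 3.78 at 13 h and fell by 1.67 after it. In Abat, which breaks down the transmitter GABA, the peak rose by 5.92 and then fell by 2.39.

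In Gfod1 the gene body was not called at 13 h. Its peak at 62.8% (chr13:43330200-43332351) had 0.535, 0.528 and 0.321 CPM at 0 h, 6.93 and 4.65 CPM at 13 h and 0.668 and 0.310 CPM at 24 h. It rose by 3.66 ± 0.47 (adjusted p = 6.23e-05) and then fell by 3.54 ± 0.55 (adjusted p = 0.00226, edgeR). The gene body changed by 0.16 at 13 h (adjusted p = 0.776) and was lower at 24 h than at 0 h, by 2.58. In Acsf3, an enzyme of mitochondrial fatty acid synthesis, the reverse held, and the host's rise of 6.98 at 13 h exceeded the peak's 3.63. Transient peaks in Mfsd7a, Mmp15 and Col5a3 rose by 6.68, 4.82 and 4.11 at 13 h, with hosts that rose by 6.74, 4.01 and 6.66. The ratio to the host was not called for Mfsd7a (0.66, adjusted p = 0.61, edgeR) or Mmp15 (1.04, adjusted p = 0.0641). With the peak's reads taken out of the host's, and the remainder held at 1 read or more, it rose by 6.855 (adjusted p = 0.00182) and 6.789 (adjusted p = 0.0304, edgeR). The first is close to the Mfsd7a peak's own rise of 6.68, and the second exceeds the Mmp15 peak's 4.82. Where few host reads remain, such a ratio does not show how far a peak outran its host. The ratio for Col5a3 was called lower at 13 h either way. That call was lost in 5 alternative fits. Among them were the replicate number as a block (adjusted p = 0.0563, edgeR) and limma's test (adjusted p = 0.0629). How far these host rises rest on the peak's reads was not tested.

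**Figure D4:**
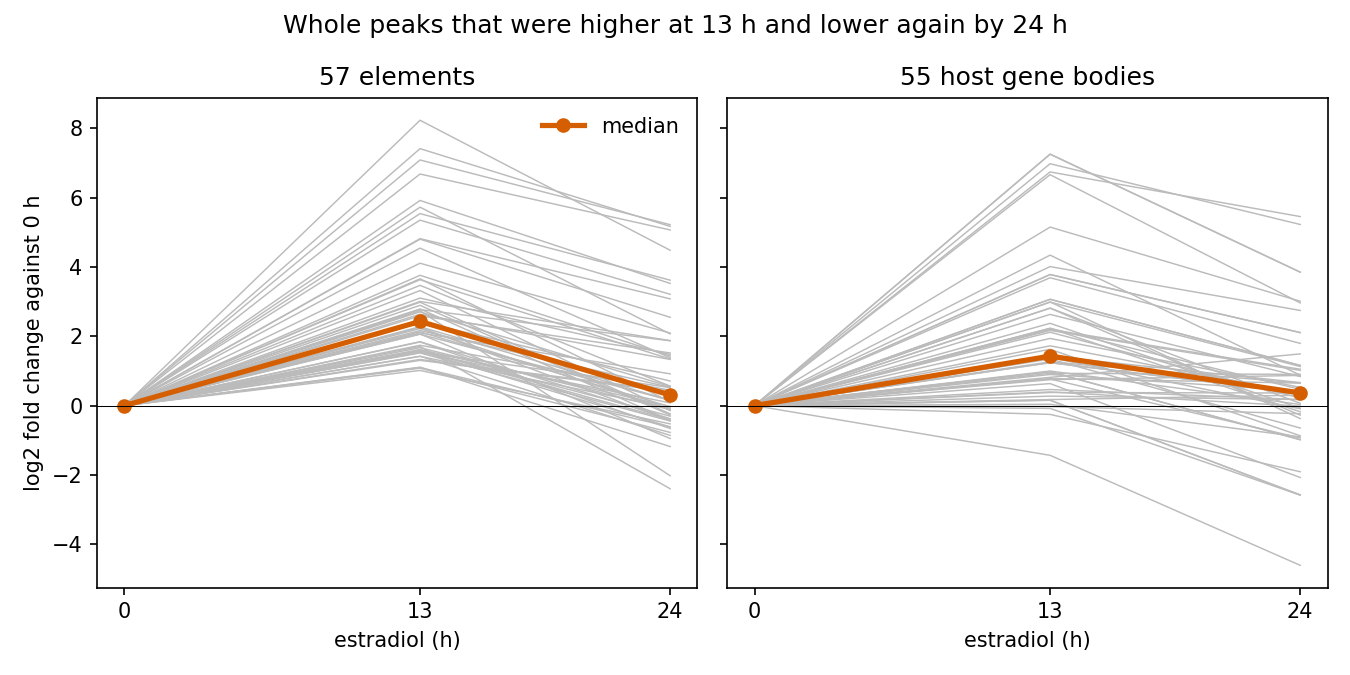
Fitted log2 fold change against 0 h of 57 transient peaks (left) and of the hosts of the 55 with a tested host (right). Values are at 0 h, 13 h and 24 h of estradiol. Thin lines are single peaks or the host of a peak, and a host with several transient peaks is drawn and counted once for each. The thick line is the median, 2.43 for peaks and 1.43 for hosts at 13 h, and 0.31 and 0.37 at 24 h.

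Several peaks separated the lines before estradiol. A peak at 5.96% of Macf1, a crosslinker of microtubules and actin (chr4:123340500-123342801), had 407, 309 and 414 reads in G1E-ER4 at 0 h and none in G1E. It was at least 184-fold higher (adjusted p = 1.62e-07, edgeR), and every G1E-ER4 library had it, with 957 and 1620 reads at 13 h and 2002 and 1708 at 24 h. The gene body averaged 206 ± 12.5 CPM at 0 h (SD, n = 3), against 157 ± 10.8 CPM in G1E (n = 2), a log2 difference of 0.39 (adjusted p = 0.0513), and the ratio was higher (adjusted p = 0.000169). Peaks in Mgll, a lipase of endocannabinoids, and Medag also had no read in G1E and were at least 156- and 134-fold higher at 0 h. Their hosts were higher too, by 6.85 and 6.74 on the log2 scale.

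Other peaks were found almost only in G1E. Dapk1, a kinase of cell death, held a peak (chr13:60843750-60847951) with no read in any of the 7 G1E-ER4 libraries and 1634 and 406 reads in G1E, at least 1395-fold lower at 0 h (adjusted p = 4.90e-07, edgeR). Tenm2, a neuronal adhesion gene, held one with no read in G1E-ER4 and 1168 and 280 reads in G1E, at least 990-fold lower at 0 h. Of the 2 named peaks of Pced1b, 1 had a single read over the 0 h libraries against 1701 and 474 reads in G1E, a ratio of G1E over 0 h of 4463 (95% counting interval 800.1 to 176300). In the non-coding RNA gene Lincenc1 the peak had 2, 12 and 13 reads at 0 h, against 12704 and 3806 reads in G1E. These hosts were lower in G1E-ER4 at 0 h as well, with log2 differences of -6.45 to -11.09.

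In contrast, hosts of the G1E-high peaks in Adcy10 and Camkmt differed little. Adcy10 encodes the soluble adenylyl cyclase. Its peak at 86.3% (chr1:167493250-167495451) had 0.161, 0.249 and 0.170 CPM at 0 h, against 11.5 and 9.74 CPM in G1E, and was lower at 0 h by 5.78 ± 0.47 (log2 -5.78, adjusted p = 1.60e-06, edgeR). The host's log2 difference was -0.57 (adjusted p = 0.309). In Camkmt, a methyltransferase gene, the peak's log2 difference was -4.00 ± 0.41 (adjusted p = 1.20e-05) and the host's was -0.22 (adjusted p = 0.325).

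Esr1, the oestrogen receptor gene, holds 7 of these peaks, and the switch in G1E-ER4 contains the hormone-binding part of that receptor. The 5 peaks from 49.7% to 98.5% of the gene had between 129 and 1107 reads in each 0 h library, and 1 read in all in both G1E libraries. Widths of these 5 were 451 to 601 bases. Of the 5, 4 were at least 98.0- to 124-fold higher at 0 h, and that at 97.4% had a ratio of 0 h over G1E of 1191 (95% counting interval 213.5 to 47050). None of them was called at 13 h or 24 h against 0 h. The gene body was higher by 4.66 at 0 h (adjusted p = 0.000327, edgeR).

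The remaining 2 Esr1 peaks lie nearer the start of the gene. That at 26.1% (chr10:5558700-5559901) had 0.936, 0.715 and 0.548 CPM at 0 h, against 3.59 and 2.72 CPM in G1E, and was lower at 0 h by 2.11 ± 0.51 (log2 -2.11, adjusted p = 0.00981, edgeR). It had 0 and 1 read at 24 h. That at 11.6% was not tested, with 2, 0 and 0 reads at 0 h, none at 13 h and 24 h, and 12 reads and 1 read in G1E. Reads from the fusion and from the native Esr1 gene cannot be told apart in these counts.

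**Figure D5:**
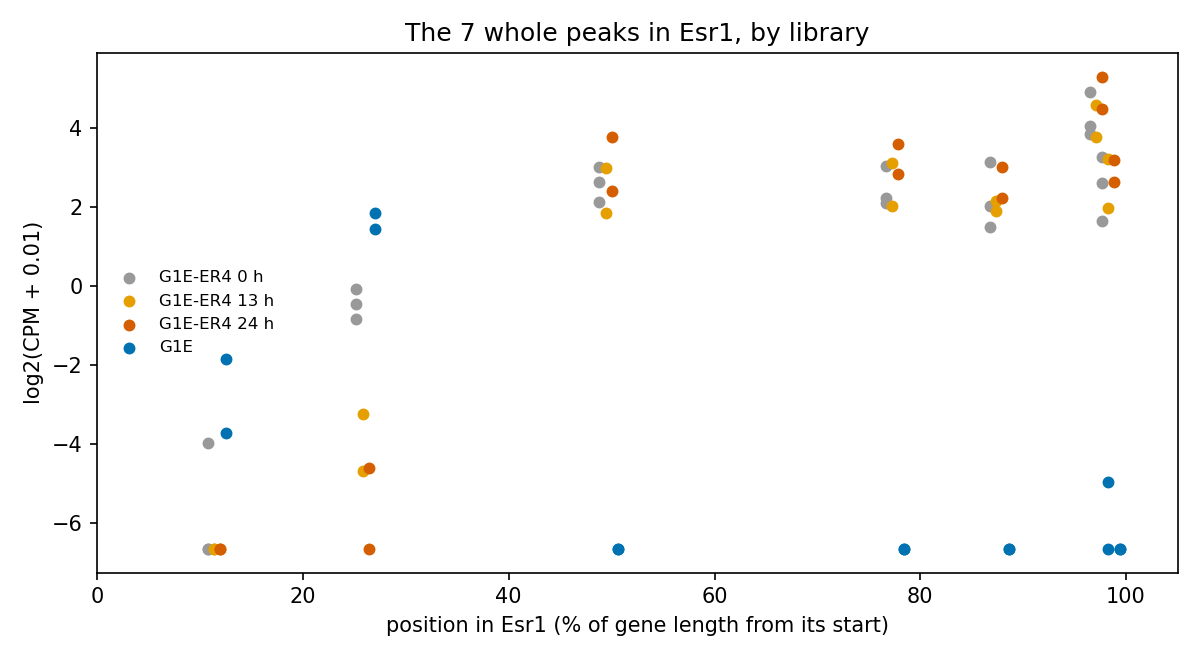
Level of the 7 intragenic whole peaks of Esr1 in each library, as log2(CPM + 0.01), against their position in the gene in percent of its length. From 49.7% onwards all G1E-ER4 libraries lie above the G1E libraries, and at 26.1% the G1E libraries lie above all others.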

How the data were processed

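PRO-seq libraries were taken as deposited. Raw read counts per gene body and per dREG peak entry were deposited for 9 libraries, per the file headers, and the peak table also gives, as deposited, the position within a gene in percent. The submitters' processing notes name BWA and mm9. Neither the labels nor the file headers state the counting tool or its use of strand. Coordinates are those of the deposited table, in mm9.

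All elements and all genes with enough reads (filterByExpr) entered edgeR (4.0.16, R 4.3.3) with TMM factors, a mean for each of the 4 groups and robust quasi-likelihood dispersion. Benjamini-Hochberg adjustment ran over all features at 0.05. An SE is the absolute log2 change over the square root of F. The ratio test used the log of the host's count plus 1 as the offset, without library scaling. Where the peak's reads were taken out of the host's, the offset was the log of the remainder, held at 1 read or more. That step assumes that the host's count includes the peak's reads, which the sources used here do not state. DESeq2 1.42.0 and limma 3.58.1 served as alternatives. Depth per library limits the precision, and intervals and floors of 3 reads cover counting error only.

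Members and gene lists were chosen with earlier results of these data known. Named peaks had 1 host with a gene name and a mean count of at least 50. They were the 5 largest called changes each way per comparison, for the peak (groups not overlapping) and for the ratio, the 5 largest opposite changes, the 8 largest transient rises, up to 4 per gene list, and all peaks of the 3 hosts with most, ties included. Not all of these are reported here. Peaks of Lars2 and Rab27b, and that at 79.3% of Pde4d, were chosen after their values were seen. Replicates 1 and 2 of 0 h and 13 h share both their replicate number and the leading digits of their titles. The same holds for replicate 1 of G1E and replicate 1 of 24 h. Other same-numbered replicates share the number alone. Replicate 3 of 0 h shares its leading digits with both 24 h libraries and with replicate 1 of G1E. Nothing in the labels says what the number or the digits mark. Both were tried as blocks, and neither was used in the fits reported.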

Additional observations from a re-analysis of the deposited data

How the results depend on the processing

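Counts of called intragenic whole peaks are given as higher and lower. Leaving out 1 library at a time, they ranged over 313 to 421 and 552 to 846 at 13 h, 342 to 408 and 902 to 1210 at 24 h, 13 to 103 and 82 to 448 from 13 h to 24 h, and 124 to 293 and 276 to 763 for 0 h against G1E. For the ratio of peak to host these ranges were 128 to 243 and 120 to 265, 115 to 208 and 201 to 424, 0 to 16 and 1 to 107, and 32 to 104 and 36 to 209. For host gene bodies they were 74 to 131 and 93 to 275 from 13 h to 24 h, and 106 to 194 and 172 to 371 for 0 h against G1E. Transient peaks numbered 7 to 93. With the title digits as a block, 9 and 94 peaks were called from 13 h to 24 h, 186 were higher for 0 h against G1E, and 9 were transient. In the same block the ratio gave 0 and 0 from 13 h to 24 h and 50 higher for 0 h against G1E. From 13 h to 24 h, gene-body scaling gave 43 higher peaks and total element counts 51. For the ratio in that comparison, limma gave 17 higher, and library scaling of both tables, added after seeing the data, gave 19 higher, and 404 lower at 13 h. The cause of these shifts was not tested. As a share of gene-body reads, intragenic whole peaks differed by -0.0558 percentage points for 24 h against 13 h and by -0.4256 for 0 h against G1E (exact two-sided permutation p = 0.1, the smallest this design allows), and without the Lars2 peak, also added later, the first difference in element reads was 0.1132.

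Deviations of same-numbered replicates of 13 h and 0 h, which also share title digits, correlated at 0.455 and 0.395, and those in the other 3 comparisons at -0.028 to 0.224. In a group of 2 libraries the deviations from the group mean mirror each other, so the 2 correlations of a comparison are not separate evidence. With the replicate number as a block, the calls at 13 h were 373 and 798 and those at 24 h 386 and 1148. The lower count of the ratio from 13 h to 24 h was then 92. Over 178 values of named peaks, 2549 of 2670 refits kept direction and side of the threshold, 104 lost the call and 17 gained one, and none reversed. With the peak's reads taken out of the host's, 82 ratio refits stayed the same, 3 lost the call and 4 gained one. The ratio calls of several peaks with no read in 1 group depend on single libraries, such as that of the Esr1 peak at 77.5% (adjusted p = 0.181 without replicate 1 of G1E, edgeR).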
